A study of Homo sapiens with 24 samples.

Results

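The comparison described here set pancreatic progenitors (PP) without ALKBH5 against wild-type PP, gene by gene, and asked which functions the changed genes have. Members were the genes that held at least 50 input reads under their m6A peaks in each of the WT PP and A5-KO PP peak lists, 8328 of the 24808 gene entries with a peak in any of the 6 lists of the series. The number of genes with a peak was 14942 for WT PP against 19828 for A5-KO PP, and 13212 had a peak in both lists, and 4884 of these shared genes fell under the read minimum in at least 1 list. A further 1730 genes had peaks in WT PP alone and 6616 in A5-KO PP alone. Genes at the edge of the rule were alike: among 321 genes with 50 to 59 input reads in the list with fewer, the median log2 IP/input difference was 0.12, and among 380 genes with 40 to 49 reads, left out, it was 0.14.

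The cells of both genotypes came from the human embryonic stem cell (hESC) line MEL1, described by the study as the INS GFP/W reporter line with GFP at the insulin locus, differentiated stepwise through definitive endoderm to PP, and both genotypes were processed as batch 2. WT cells were the wild-type line. A5-KO cells carried indels that a CRISPR-Cpf1 nuclease with a pair of guides had made in the first exon of ALKBH5, in lines grown from edited cells, so the genotype and the line cannot be told apart. For each genotype 2 IP libraries, made with an m6A antibody from fragmented total RNA, and 2 input libraries depleted of rRNA were pooled by the authors into 1 peak list. Each gene therefore has 1 IP value and 1 input value per genotype, there is no replicate check on any difference, and no test was made. Counting ranges at 95% cover sampling of reads only, and PCR copies are not independent molecules. Being bulk RNA, fewer cells of a type and less RNA per cell cannot be told apart.

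N6-methyladenosine (m6A) is an internal mark of mRNA. The METTL3 and METTL14 complex writes it, ALKBH5 and FTO, which are dioxygenases, remove it, and YTH domain and IGF2BP proteins bind it and alter the splicing, decay or translation of the marked RNA. Immunoprecipitation (IP) with an m6A antibody enriches marked fragments, so that the ratio of IP to input reads rises with the marked share of a transcript, while input reads come from the RNA without enrichment. PP cells are the precursors of the exocrine, duct and endocrine pancreas and are defined by factors such as PDX1, NKX6-1 and SOX9.

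The measure used is the log2 IP/input ratio of all peaks of a gene relative to that of all peaks of its list. A gene counted as higher or lower where this value differed by at least 1, a 2-fold change. Input reads were scaled to the input reads in all peaks of the list and to the exonic length the peaks of the gene covered (input per kb).

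A few stretches that lay under a peak in both lists are shown for genes named for their gene-level changes. In EXOC6B the ratio over the stretch changed little while both counts fell, and it is given as a contrast to its gene-level value. They are given on GRCh38, read 5′ to 3′ on the transcript strand, with GGAC, the core of the m6A consensus, in capitals. First come stretches inside coding exons, then 30-base windows around the GGAC nearest the middle of peaks too long to show.
SLMAP, chr3:57912388-57912662, plus strand: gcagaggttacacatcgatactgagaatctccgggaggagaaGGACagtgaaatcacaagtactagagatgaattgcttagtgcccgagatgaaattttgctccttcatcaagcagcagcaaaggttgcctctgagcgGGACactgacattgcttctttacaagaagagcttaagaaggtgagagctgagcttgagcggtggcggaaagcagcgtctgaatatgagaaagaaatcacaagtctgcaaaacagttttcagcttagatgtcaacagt
CLCN6, chr1:11828534-11829229, plus strand, the exonic bases of 2 joined exons: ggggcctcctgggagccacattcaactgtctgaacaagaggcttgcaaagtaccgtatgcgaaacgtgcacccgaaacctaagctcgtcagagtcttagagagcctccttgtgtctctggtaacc
EXOC6B, chr2:72465243-72480668, minus strand, the exonic bases of 2 joined exons: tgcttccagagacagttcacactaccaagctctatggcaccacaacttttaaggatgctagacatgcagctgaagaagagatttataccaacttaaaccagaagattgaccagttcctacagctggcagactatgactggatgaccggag
IPMK, chr10:58196470-58196499, minus strand: gtttttgtccaaaGGACaactgtcagacac
METAP1, chr4:99061425-99061454, plus strand, 3′UTR: tatagataagaaaGGACtacagcatttgat
IKZF5, chr10:122994301-122994330, minus strand, coding: gtggccttccaagGGACccccaagaactca
The SLMAP stretch held 2 GGAC, and those of CLCN6 and EXOC6B held none. GGAC was searched on the transcript strand only. It stood in 55.7% of the 15250 WT PP peaks of member genes between 100 and 300 nt long, and in 55.2% of the 17706 A5-KO PP peaks of that length. Peaks of genes with higher IP/input held 4.58 GGAC per kb in WT PP against 4.21 in A5-KO PP, and those of genes with lower IP/input held 4.51 and 4.11. Genes in neither group had 4.66 and 4.59 per kb, so the density differed more between the lists in the changed groups, a difference that was not tested.

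ALKBH5 itself was not a member. WT PP had 4 ALKBH5 peaks with 289 input and 836 IP reads. In A5-KO PP 5 peaks were called on the gene with 1 input read between them and 592 IP reads. Of the WT PP input reads 288 lay in 1 peak of 175 nt, and the other 3 WT PP peaks held 285, 42 and 51 IP reads on 1, 0 and 0 input reads. Peaks with IP reads on almost no input were thus called on ALKBH5 in both lists, and the fall in its input rests on 1 peak.

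The PP label was checked against markers. All 10 pancreatic progenitor markers had a peak in both lists, and their input summed to 45084 reads in WT PP against 25775 in A5-KO PP, 186 and 173 when scaled to the list total and covered length (input CPM per kb). Of 10 hepatic markers 9 had a peak in WT PP against 7 in A5-KO PP, and their input was 30697 and 3470 reads, or 144 and 25.7 CPM per kb. That fall rested on a few genes. TTR went from 15675 to 250 input reads, with 14989 of those in WT PP in 1 peak of 50 nt. TF, summed over its entries, went from 8031 to 358, and FGA from 5572 to 862. APOB went from 854 to 988 and FGB from 71 to 874. ALB had no peak in either list, and AFP had 30 IP reads on 0 input reads in WT PP against 207 on 88 in A5-KO PP. Of 8 gut and stomach markers 6 had a peak in at least 1 list, with 4042 and 2500 input reads, or 55.3 and 52.8 CPM per kb. None of the 5 pluripotency markers had a peak in WT PP, and 1 did in A5-KO PP, in a composite entry. Mesenchymal markers summed to 341 and 869 input reads, or 26.5 and 47.1 CPM per kb, with 3 and 5 of 5 genes having a peak. NEUROG3, INS, GCG, SST and PAX6 were without a peak in both. Their part in the differences below was not tested.

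Among the 5 pancreatic factors named for every comparison, ONECUT1 alone passed the 2-fold mark in gene-level IP/input. ONECUT1, a homeodomain factor of early pancreas, had 765 IP on 687 input reads in 5 WT PP peaks and 5391 on 1820 in 8 A5-KO PP peaks. Its log2 IP/input was 1.47 higher in A5-KO PP, with a counting range of 1.30 to 1.63. Its matched peaks, those covered for more than 50% of their exonic length by peaks of the other list, held 36 WT PP against 37 A5-KO PP input reads, too few for a value, and 4773 of its A5-KO PP IP reads lay in a coding peak without a match. NKX6-1, needed for beta cell fate, went from 7011 IP on 2744 input reads in 5 peaks to 809 on 592 in 3 peaks, a log2 IP/input difference of -0.85, and of -1.96 over its matched peaks, 1 of 875 nt in the 3′UTR in WT PP with 115 input reads and 3 inside it in A5-KO PP.

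PDX1, the factor that defines pancreatic endoderm, had 3275 IP on 1255 input reads in WT PP and 7019 on 2494 in A5-KO PP. Its IP/input difference was 0.16, while its input per kb was higher by 2.13 on the log2 scale. SOX9, a progenitor and duct factor, was the most read of the 5, with 73923 IP on 19880 input reads in WT PP and 31331 on 9521 in A5-KO PP. SOX9 and MNX1 differed by -0.12 and -0.15 in log2 IP/input and by -0.48 and -0.44 in log2 input per kb. The peaks of MNX1, a homeodomain factor, went both ways. Its most read peak had 10.8 IP reads per input read over 400 nt in WT PP against 7.22 over 75 nt at the same end in A5-KO PP, and its 5′UTR peak went from 788 IP on 308 input reads to 1218 on 94. Over matched peaks SOX9 differed by -0.12, while MNX1 was higher by 1.55, past the 2-fold mark. With the deposited enrichment MNX1 was higher by 0.76. Its matched peaks leave out the WT PP peak of 400 nt and keep the A5-KO PP peak of 75 nt. GATA4, a factor of early endoderm, differed by -0.06 in log2 IP/input.

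Across the members, IP/input was at least 2-fold higher in A5-KO PP for 1329 genes, 16.0% of those compared, and at least 2-fold lower for 1403 genes, 16.8%. The median difference was -0.04 on the log2 scale, and the quartiles were -0.66 and 0.60. The spread of the genes was therefore wide and centred near no change, which the plot of the 2 genotypes shows. All 1329 rises and 1403 falls were beyond their own counting ranges, but so were 4054 of the 5596 genes inside the 2-fold limits, so that counting error is the smaller part of the spread.

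**Figure D1:**
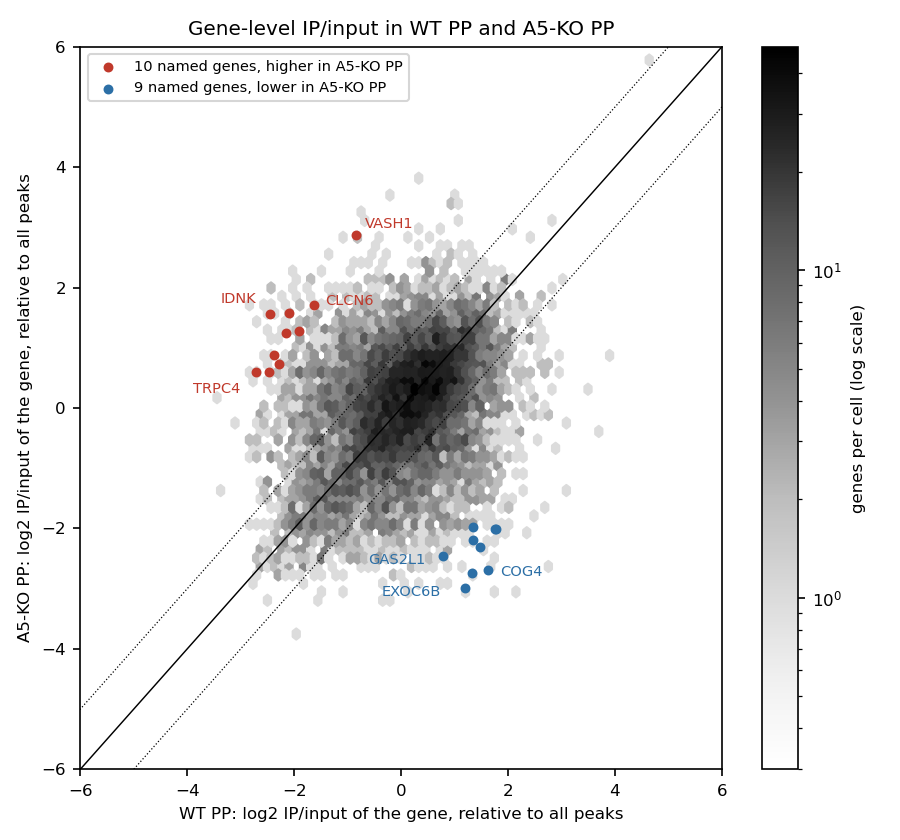
Log2 IP/input of the 8328 member genes in WT PP (x axis) and A5-KO PP (y axis), each relative to all peaks of its list, with shading for genes per cell on a log scale, a solid line at equality and dotted lines at a log2 difference of 1. The genes form 1 broad cloud around the line, and the 10 named rises and 9 named falls lie among its outermost genes.

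How far this cloud spread followed the number of reads. Of 1298 genes with 50 to 99 input reads in the list with fewer, 25.3% were higher and 20.6% lower in A5-KO PP. Of 1736 genes with 1001 to 76623, 5.82% were higher and 8.81% lower. The same classes differed in direction, with more rises than falls at low input and more falls than rises at high input.

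Calls rested to a large part on single peaks. Genes had a median of 3 peaks in each list, covering a median of 0.825 kb in WT PP and 0.770 kb in A5-KO PP, and the peak with the most input reads held a median of 71.7% and 72.4% of a gene's input. When that peak was left out of both lists, 459 of the 1329 genes with higher IP/input still had 50 input reads in each, and 218 of them, 47.5%, were again higher by 2-fold. Of the 1403 lower genes 520 could be recomputed and 225, 43.3%, were again lower. Over matched peaks alone, rescaled to those peaks, 79.7% of 787 higher genes and 73.6% of 859 lower genes that could be recomputed kept the call. Matching of this kind can keep a peak and leave out its longer counterpart in the other list. Over mutual matches, peaks that covered each other for more than 50% of both, a rule set after seeing the data, 73.0% of 634 higher genes and 67.3% of 731 lower genes kept the call.

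Rises and falls did not come from IP reads alone. Of the genes with higher IP/input, 690 had at least 2-fold more IP reads per kb in A5-KO PP and 559 had at least 2-fold fewer input reads per kb. Among those with lower IP/input, 611 had IP reads down and 712 had input reads up by that fold. The 2 measures share the input reads, so an inverse relation between them is partly built in. LncRNA entries made up 7.83% of the higher and 8.77% of the lower genes and 5.50% of the rest.

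The lists of the first batch, in which another antibody was used on enriched mRNA, gave a second reading of the same genes. In the first-batch PP list 852 of the higher genes and 912 of the lower genes had 50 input reads, with a median scaled log2 IP/input of 0.00 and -0.02. Genes inside the limits had a median of 0.01, and the quartile ranges of the 3 groups overlapped. Across genes, the Spearman correlation of IP/input was 0.34 between WT PP and A5-KO PP over 8328 genes and 0.17 between first-batch PP and WT PP over 7185 genes. Between first-batch PP and A5-KO PP it was 0.22 over 6673 genes. These values are over genes, which share library, depth and base composition.

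Large changes of single genes are named among protein-coding genes that had 200 or more input reads in each list, and whose matched peaks, with 50 or more in each, also passed the 2-fold limit in the same direction. Members outside these conditions reached further, to 4.52 and -5.36. Over mutual matches 9 of the 10 rises had 50 input reads in each list and 7 of these passed the limit, while TRPC4 and ARHGEF35 did not. Every fall named here passed it except ATP11A, whose mutual matches held too few reads. Within them, the genes with the largest rises in IP/input had an IP/input below the average of WT PP and above the average of A5-KO PP in every case. Choosing genes by the size of this difference favours such a pattern. IDNK, a gluconate kinase, led them with 1098 IP on 1900 input reads in WT PP and 83502 on 9305 in A5-KO PP, a difference of 4.01. Its A5-KO PP reads lay in 1 peak of 175 nt in the 3′UTR, while 93.4% of its WT PP input lay in a separate peak of 100 nt in coding sequence. VASH1, a tubulin carboxypeptidase, followed at 3.72 in an entry it shares with an overlapping gene, and 96.8% of its A5-KO PP IP reads came from a single 200-nt peak in the 5′UTR. That peak had 26.0 IP reads per input read, the WT PP peak of 1050 nt over it had 8.15 on 52 input reads, and the mutual match of the gene, elsewhere, held no input read in A5-KO PP.

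IPMK, an inositol phosphate kinase, gave a contrast over a single stretch. A peak of 575 nt, its middle in coding sequence, held 543 IP on 781 input reads in WT PP. The A5-KO PP peak over the same stretch held 6755 on 744. For the whole gene, input per kb differed by -0.17 and IP per kb by 3.50. METAP1, a methionine aminopeptidase, had 1 peak of 450 nt with the same ends in both lists, holding 989 IP on 1642 input reads in WT PP and 2101 on 376 in A5-KO PP. In METAP1 both counts moved, and the log2 IP/input difference was 3.26 with input per kb lower by 1.54.

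In SLMAP, a membrane-anchored scaffold protein, the coding stretch shown above held 78 IP on 40 input reads in WT PP and 2180 on 121 in A5-KO PP. CLCN6, a chloride and proton exchanger of endosomes, had a peak of 125 nt with the same ends in both lists, with 327 IP on 363 input reads in WT PP and 6121 on 622 in A5-KO PP. That entry overlaps other genes. TRPC4, a calcium-permeable channel, differed by 3.32, and 93.0% of its 17570 WT PP input reads lay in 1 peak, its middle in coding sequence. Over its mutual match the difference was 0.03, with 290 and 111 input reads.

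The other rises were in CREG1, a secreted glycoprotein (3.19), ARHGEF35, a guanine nucleotide exchange factor with a near-identical copy in the genome (3.07), and LARS2, the mitochondrial leucyl-tRNA synthetase (3.01). Over mutual matches CREG1 was higher by 3.00 and LARS2 by 1.13, while ARHGEF35 differed by -0.94. Reads of ARHGEF35 cannot be assigned to it with certainty.

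The falls were of similar size. COG4, a subunit of the Golgi tethering complex, had 1 peak in each list, of 75 and 100 nt in the 3′UTR. It held 3124 IP on 320 input reads in WT PP and 457 on 974 in A5-KO PP, a difference of -4.32. IKZF5, a zinc finger factor, had 6194 IP on 677 input reads in a 675-nt coding peak in WT PP and 199 on 442 in the matching A5-KO PP peak of 725 nt.

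HERC4, a ubiquitin ligase, held 7928 IP on 586 input reads in a peak of 200 nt spanning 2 exons in WT PP and 149 on 153 at the same ends in A5-KO PP. FAM13A had a matched peak of 175 nt with 2950 IP on 326 input reads in WT PP and 47 on 97 in A5-KO PP. In both genes A5-KO PP also had peaks of its own, 2 in HERC4 and several in FAM13A, that carried most of the input.

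EXOC6B, an exocyst subunit, differed among its own peaks. Its gene-level difference was -4.18, yet the coding stretch shown above held 2247 IP on 278 input reads in WT PP and 133 on 20 in A5-KO PP, or 8.08 and 6.65 IP reads per input read. Over all 3 matched peaks the difference was -3.62, and 1 of them went from 33 IP on 47 input reads to 270 on 793. Of the 5901 input reads in A5-KO PP, 3920 lay in a peak of 50 nt found in that list alone. UBE2L3, a ubiquitin-conjugating enzyme (-3.77), had 16864 of its 16956 WT PP IP reads in 1 peak of 50 nt. It differed by -1.38 over matched peaks and by 0.73 without the peak with the most input reads.

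RAB7A, the late endosome GTPase (-3.53), had 95.1% of its A5-KO PP input in 1 peak of 50 nt and differed by -1.84 over its mutual match. ATP11A, a phospholipid flippase, differed by -3.33, and by 1.45 with equal weight for each peak. GAS2L1, a linker of actin and microtubules, differed by -3.25. Over the eligible 3624 protein-coding genes with 200 input reads in both lists, 286 were higher and 337 lower in both the gene-level and the matched-peak value.

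To describe functions, 49 gene lists were read against all members. They held 2149 members, 25.8% of all, and 38 lists had at least 20. Among these 38, the share of members with higher IP/input ran from 0% to 32.7% and with lower from 0% to 23.2%, around 16.0% and 16.8% over all members. List medians ran from -0.29 to 0.56. The counts below describe each list, and no list was tested against the others. Alternatives also moved the shares over all members. With equal weight for each peak 25.6% were higher and 16.2% lower, with a median of 0.18. With the enrichment deposited by the authors these were 21.0% and 18.5%, and over matched peaks 18.0% and 16.9%. Without the peak with the most input reads they were 18.2% and 15.0%. A minimum of 200 input reads gave 12.0% and 14.7%, and peaks with p below 1e-05 alone 13.1% and 15.0%.

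Signaling pathways came first. Notch signaling, in which a cleaved receptor acts as a coactivator and which holds progenitors back from endocrine fate, had 8 of 27 members higher and 1 lower, with a median of 0.54. The median was 0.61 over matched peaks, rescaled to those peaks, and 0.72 with the enrichment the authors deposited, but 0.10 in the 16 genes left without their strongest input peak. MAML3, a coactivator of the Notch complex, had 4095 IP on 2513 input reads in WT PP and 14910 on 2702 in A5-KO PP, a difference of 1.81. APH1B, a gamma-secretase subunit, went from 876 IP on 391 input reads to 3262 on 701.

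HEY1, a Notch target gene, had 5367 IP on 2162 input reads in WT PP and 1449 on 283 in A5-KO PP, and its log2 IP/input was 1.10 higher with fewer reads of both kinds. DTX2, a ubiquitin ligase of the pathway, was higher by 2.38. Input per kb was higher by 0.89 in MAML3 and lower in HEY1 and DTX2, by 1.76 and 3.72, so the Notch examples did not share a direction of input.

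FGF, EGF, insulin and RAS-MAPK signaling had the highest share of rises among the lists with 20 or more members, 17 of 52, together with 10 falls and a median of 0.10. The lead of rises was lost over matched peaks, with 9 higher and 11 lower of 42, at a minimum of 200 input reads, with 9 and 10 of 42, and without the peak with the most input reads, with 6 and 8 of 34. Its examples went both ways. The entry of IGF2, a growth factor, which overlaps INS-IGF2, held 980510 input reads in WT PP, 5.15% of the list, against 5148 in A5-KO PP, and 787781 and 9990 IP reads. Its IP/input was higher by 1.33, lower by 0.24 over matched peaks and higher by 1.45 over the mutual match, with 142 input reads in WT PP. RPTOR, the scaffold of mTORC1, was higher by 1.02. IRS1, the docking protein of the insulin receptor, had 14111 IP on 1688 input reads in WT PP and 2634 on 2473 in A5-KO PP, a difference of -2.92. DUSP4, a MAP kinase phosphatase, was lower by 1.56.

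Wnt signaling had 8 of 50 members higher and 4 lower, with a median of -0.10, and 4 of 39 in each direction when peaks with p below 1e-05 alone were used. In input per kb 18 were higher and 7 lower, 36.0% and 14.0%, against 30.5% and 22.7% over all members. CTNNB1, the beta-catenin gene, had 12009 IP on 2019 input reads in WT PP and 5872 on 2989 in A5-KO PP, a difference of -1.54. PRICKLE1, of planar polarity, was lower by 1.16, while AXIN1, a scaffold of the destruction complex, and WNT9A, a ligand, were higher by 1.40 and 1.89. WNT9A had no matched-peak value.

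The Nodal, TGF-beta and BMP list had 5 of 37 higher and 2 lower, and 2 of 32 in each direction at a minimum of 200 input reads. The falls were TGFB2, a ligand, at -3.34, where the matched-peak difference was -0.10, and an entry of TGIF2, a SMAD corepressor, at -3.18. A second entry that joins TGIF2 with RAB5IF was higher by 1.59, and the overlap leaves the assignment of its reads uncertain. BMP7, a ligand, was higher by 1.18 and FSTL3, an activin antagonist, by 1.24. Hippo signaling had 5 of 39 higher and 6 lower with a median of -0.24, and Hedgehog and cilium genes 5 of 39 and 7. Both lists moved with the processing. Hippo signaling had no rise and 4 falls of 30 over matched peaks. With equal weight for each peak it had 8 and 6, but rises were then also more frequent over all members, 25.6% against 16.2%. The Hedgehog list had 7 rises and 5 falls of 29 over matched peaks, against 18.0% and 16.9% of all genes compared.

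Lineage lists were short. Of 22 pancreatic progenitor factors 3 were higher, PROX1, ONECUT1 and SOX4, and none was lower, with a median of 0.02. With each peak given equal weight 5 were higher and 2 lower, over matched peaks 3 and 2 of 17, without the peak with the most input reads 3 and 2 of 16 with a median of -0.29, and with p below 1e-05 alone 1 and 2 of 17. No direction held for this list. PROX1, a factor of liver and pancreas buds, went from 3958 IP on 2140 input reads to 7628 on 2069, a difference of 1.05 with 6 peaks in both lists and input per kb higher by 0.96.

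Of 10 gut and stomach genes 4 were lower and none higher, APOB, SLC40A1, CDX2 and MTTP, with a median of -0.74. CDX2, the intestinal homeodomain factor, had 1648 IP on 413 input reads in WT PP and 677 on 449 in A5-KO PP. APOB, the lipoprotein apolipoprotein, which the hepatic list also holds, had 6703 IP on 854 input reads and then 2039 on 988, with 13 peaks in both. In both genes the raw input counts were similar and IP reads were fewer, while scaled input per kb was higher by 1.31 in CDX2 and 0.76 in APOB. With equal weight for each peak, however, 2 of the 10 were higher and 2 lower.

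Hepatic genes had 3 of 18 higher and 1 lower, none and 2 of 6 without the peak with the most input reads, and 7 higher and 7 lower in input per kb. Endocrine and hormone genes had 1 of 7 higher and 3 lower, and 1 and 1 with equal weight for each peak. CHGA and CHGB, which encode granule proteins of endocrine cells, went in opposite directions, by -1.63 and 2.35, and KCNJ11, the pore of the beta cell KATP channel, was lower by 1.42. CHGA had no matched-peak value.

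Genes of RNA metabolism differed among themselves. Other RNA modification enzymes, which methylate or pseudouridylate tRNA and rRNA, had 11 of 44 members higher and 5 lower, with a median of 0.26, and 4 of 16 in each direction without the peak with the most input reads. METTL2A, a tRNA methyltransferase, had 2504 IP on 892 input reads in WT PP and 10649 on 1641 in A5-KO PP. PUS1, a pseudouridine synthase, went from 432 IP on 627 input reads to 2037 on 591, a difference of 2.37, and TRMT10C, of the mitochondrial RNase P, and RPUSD3 were higher by 1.05 and 1.20. Over matched peaks TRMT10C differed by 0.64, short of the limit, and over its mutual match PUS1 differed by -0.06.

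Aminoacyl-tRNA synthetases, which charge tRNA, had 6 of 21 higher and 2 lower and the highest median of the longer lists, 0.56. That median was 0.19 over matched peaks and 0.00 in the 14 genes compared when peaks with p below 1e-05 alone were used, where 1 was higher and 2 lower. In input per kb 10 were higher and 3 lower. Mitochondrial ribosomal proteins had 11 of 39 higher and 6 lower, and 2 of the rises were composite entries of SLC5A3/MRPS6, noted after their values were seen, whose reads may belong to SLC5A3.

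The m6A writers, erasers and readers had 1 of 22 higher and 3 lower, with a median of -0.04. With equal weight for each peak 6 were higher and 3 lower, and with the deposited enrichment 5 and 3. Rises were also the more frequent over all members in these settings, 25.6% against 16.2% and 21.0% against 18.5%. No direction of its own was read for this list. RBM15B, an adaptor of the writer complex, was higher by 1.30, with 4763 IP on 1682 input reads in WT PP and 103885 on 15502 in A5-KO PP. The falls were IGF2BP3, a reader (-1.18), YTHDC1, the nuclear reader (-2.87), and METTL14, of the writer core (-1.04). Over matched peaks METTL14 differed by 0.12 and YTHDC1 by -2.84, while those of RBM15B and IGF2BP3 held 28 and 18 input reads in WT PP, too few for a value.

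Spliceosome and SR proteins had 4 of 37 in each direction, but 8 higher and 1 lower with equal weight for each peak and 9 and 2 with the deposited enrichment. RNA decay and microRNA factors had 5 of 44 in each direction, and 7 higher and 9 lower with equal weight. Translation factors had 4 and 3 of 27, and 8 and 2 with equal weight. Over all members equal weight gave 25.6% higher and 16.2% lower, and the deposited enrichment 21.0% and 18.5%. EIF4B, a helicase cofactor with 1 peak in both lists, had 333 IP on 757 input reads in WT PP and 1433 on 690 in A5-KO PP, a difference of 2.29. UPF2, of nonsense-mediated decay, and AGO1, of the microRNA pathway, were lower by 1.70 and 1.63. Over matched peaks AGO1 differed by -2.12, while UPF2 differed by -0.10.

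Among chromatin lists, histone methylation enzymes had 7 of 55 higher and 9 lower, but 15 and 4 with equal weight for each peak. Over all members 25.6% were higher and 16.2% lower with that weight. The examples were led in reads by 2 methyltransferases of histone H3 lysine, KMT2C at -1.47 and an entry of KMT2A at -1.17. KMT2C had 22710 IP on 3962 input reads in WT PP and 12403 on 6216 in A5-KO PP over 16 and 17 peaks. Remodelers and cohesin had 7 of 39 in each direction, cell cycle genes 4 of 40 in each, and DNA repair 5 of 50 higher and 7 lower. These counts also moved with the processing. Cell cycle genes had 8 of 21 higher and none lower without the peak with the most input reads, remodelers 8 and 4 with equal weight, and DNA repair 10 and 6 with the deposited enrichment. RB1, the retinoblastoma repressor, went from 10781 IP on 1268 input reads to 1325 on 916, a difference of -2.50.

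Cadherins and protocadherins, which join cells, had 4 of 34 members higher and 4 lower, with a median of -0.07. With equal weight for each peak they had 10 and 4 with a median of 0.55. All members then had 25.6% higher, 16.2% lower and a median of 0.18. Collagens, laminins and integrins had 13 of 44 higher and 7 lower, with a median of 0.39, against 0.45 over matched peaks and 0.24 with equal weight. Without the peak with the most input reads 4 of 20 were higher and 4 lower. LAMC1, a basement membrane laminin chain, had 3908 IP on 3540 input reads in WT PP and 33348 on 9654 in A5-KO PP, a difference of 1.70. COL18A1 and COL4A1, of basement membrane, were higher by 1.31 and 1.81, and LAMA1 was lower by 2.48.

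Several lists had more falls than rises. Protein phosphatase regulators had 8 of 63 higher and 14 lower with a median of -0.29, and ankyrin repeat and SH3 scaffold proteins 6 of 56 and 13. Over matched peaks these counts were 8 and 10 of 49 and 7 and 8 of 41, and without the peak with the most input reads 5 of 26 phosphatase regulators were called in each direction. Nuclear-encoded respiratory chain genes had none of 30 higher and 5 lower, with a median of -0.19, although 6 were higher and 5 lower with equal weight for each peak. UQCR10, a complex III subunit, had 2712 IP on 232 input reads in WT PP and 114 on 82 in A5-KO PP, a difference of -3.02. SDHB, of complex II, was lower by 1.62.

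In the unfolded protein response and ER quality control list 7 of 38 were higher and 3 lower, and 7 and 6 with the deposited enrichment. TRIB3, a stress-induced pseudokinase, had 685 IP on 766 input reads in WT PP and 3259 on 845 in A5-KO PP, a difference of 2.16. Autophagy and lysosome genes had 7 of 30 higher and 5 lower, among them ATG7, an autophagy enzyme, at 2.67, and NPC1, the lysosomal cholesterol exporter, at 1.92. ATG7 had no matched-peak value, and the list's median of 0.37 was -0.34 with equal weight for each peak. Zinc finger proteins, the largest list, had 57 of 371 higher and 48 lower with a median of 0.02. With equal weight they had 108 and 42 with a median of 0.35, where all members had 25.6% higher, 16.2% lower and a median of 0.18.

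Input per kb counts only reads under called peaks, and the peaks differ between the lists. It was at least 2-fold higher in A5-KO PP for 2536 genes, 30.5%, and lower for 1887, 22.7%. The median gene was 0.25 higher on the log2 scale, so the split leans up with the scaling to list totals. With the median set to 0 there were 2094 higher and 2240 lower genes, and with no scaling 1659 and 2757. The directions of single genes below are far larger than this shift.

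Under the same conditions on reads and matched peaks, the largest rises in input were in SFMBT2, a polycomb group protein, BRPF3, a scaffold of histone acetyltransferases, ZNF473, SOX4, a developmental factor, ABHD12, a lipid hydrolase, and METRNL, a secreted protein. SFMBT2 went from 382 to 150464 input reads, of which 150418 lay in 1 peak of 200 nt. The WT PP peak over that stretch held 3 input reads. SOX4 went from 683 input and 683 IP reads to 23960 and 128626, on 3 peaks in WT PP against 7 in A5-KO PP. Its input per kb was higher by 5.78 and its IP/input by 2.48. Over its mutual match its input per kb was higher by 0.48, and in SFMBT2 and ZNF473 these matches held too few reads.

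Under these conditions the largest falls were in CDC5L, a splicing factor, SYTL2, a Rab27 effector, TTR, the thyroxine carrier of liver, CEP290, a cilium protein, RARB, a retinoic acid receptor, and ST6GALNAC3, a sialyltransferase. TTR had 15675 input and 8074 IP reads in WT PP and 250 and 154 in A5-KO PP, a log2 input difference of -6.38. Its IP/input was higher by 0.32 at gene level and by 1.35 over matched peaks. In WT PP 14989 of its input reads lay in 1 peak of 50 nt. CDC5L went from 72833 to 258 input reads, with level gene-level IP/input (0.00). In CEP290 and RARB, by contrast, IP/input was higher by 2.18 and 1.56. Among the rises in input, IP/input was lower by 2.81 in SFMBT2 and 1.59 in ZNF473, and higher by 2.45 in METRNL and 2.48 in SOX4. BRPF3 and ABHD12 were inside the limit.

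By function, input per kb was higher in 8 of 16 glycolysis and TCA cycle genes and lower in 3, with a list median of 1.00 against 0.25 over all members. DNA repair had 15 of 50 higher, a share near the 30.5% of all members, and 4 lower, 8.00% against 22.7%. Hippo signaling had 14 of 39 and 4, and m6A machinery 9 of 22 and 3. With the median of all members set to 0 the counts were 7 and 3 for glycolysis and TCA cycle genes, 14 and 7 for DNA repair, 13 and 4 for Hippo signaling and 9 and 3 for m6A machinery. Collagens, laminins and integrins leaned the other way, with 10 of 44 higher and 14 lower and a median of -0.18, as did RNA decay factors with 8 of 44 higher and 15 lower. Among hepatic markers input per kb was lower for TTR, TF (-4.85, for a single entry of the gene), SERPINA1 (-1.84) and FGA (-1.62) and higher for FGB by 4.11.

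Peak number was higher in A5-KO PP for 3186 genes, 38.3%, and lower for 2830, 34.0%, with a median difference of 0. The A5-KO PP list was the longer, with 55219 peaks against 43312, and when it was shortened by p to the same number of peaks, 1779 genes had more peaks and 3713 fewer. That comparison covered 7538 genes and removed the weakest peaks of the A5-KO PP list only.

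More peaks went with a longer gene. Among the 1664 members with the longest genomic span, above 134.6 kb, 57.5% had more peaks in A5-KO PP and 24.2% had fewer. Among the 1664 with the shortest span, up to 13.7 kb, 28.2% had more and 37.3% fewer. IP/input calls changed little over the same classes, from 15.8% higher and 15.9% lower in the shortest to 16.6% and 20.3% in the longest. The share of multi-exon peaks was higher in A5-KO PP, 38.5% against 22.9%.

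The largest gains were in U3/XACT (40 to 88 peaks), TTN/CCDC141 (95 to 121), CNTNAP2 (3 to 20) and LINC02055 (1 to 17). CNTNAP2, a neuronal adhesion protein, gained peaks as its input went from 102 to 601 reads. GPRC5C, an orphan receptor, lost the most, from 14 to 4 peaks, as its input fell from 38479 to 902 reads. MICAL3, an actin oxidoreductase, went from 17 to 8 peaks, C8orf82/LRRC24 from 11 to 3 and CLIP1, a microtubule end protein, from 16 to 8.

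In some lists gains of peaks outnumbered losses, against 38.3% more and 34.0% fewer over all members. Centrosome proteins had more in 22 of 36 and fewer in 8, cadherins in 20 of 34 and 9, voltage-gated ion channels in 28 of 51 and 13, collagens, laminins and integrins in 25 of 44 and 12, and histone methylation enzymes in 29 of 55 and 17. Members of the longest span group, 20.0% of all, made up 11.1% of the centrosome list, 35.3% of cadherins, 39.2% of ion channels, 40.9% of the collagen list and 25.5% of histone methylation enzymes, and the part of gene length in these counts was not tested. FGF and insulin signaling leaned the other way, with more in 13 of 52 and fewer in 25, as did Wnt signaling (11 of 50 and 22) and spliceosome proteins (9 of 37 and 19).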

How the data were processed

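In m6A-seq of WT and A5-KO pancreatic progenitors, 8 of the 24 libraries of the series, RNA was fragmented and sequenced before (input) and after IP. The authors used fastp for trimming and HISAT2 for alignment, on GRCh38, and called peaks with exomePeak2 on the pooled libraries of a genotype. HOMER is also named in the submitters' processing notes. The deposited lists give for each peak the IP and input read counts summed over its 2 IP and 2 input libraries, a log2 enrichment and a p-value, so that values of single libraries were not analysed here. The deposited counts were the measure used, and the log2 enrichment and p-value deposited by the authors entered alternatives only.

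Counts were summed over the peaks of each gene entry as the lists name it, with 1423 members naming more than 1 gene ID and so uncertain in assignment. Log2 IP/input and log2 input per kb were computed with a pseudocount of 1 and scaled to the list totals, 59982995 IP and 19034654 input reads in WT PP and 38575826 and 12716287 in A5-KO PP. A log2 difference of 1 was the limit for a call. Counting ranges were normal ranges at 95% with 0.5 reads added. A matched peak was covered for more than 50% of its exonic length by peaks of the other list, and a mutual match also covered its counterpart in the same gene by that share. Regions came from GENCODE release 44 and were given by the middle of each peak on the longest coding isoform. Named genes were protein-coding genes holding 200 or more input reads in each list, with a matched-peak value past the limit in the same direction, 10 per direction for IP/input, 6 for input and 4 for peak number (by difference in peaks, without these filters), plus ALKBH5 and the pancreatic and hepatic genes of the study. Up to 4 examples per list, of the genes past the limit, were taken from the 4 of either direction with most input reads in the list with fewer. Of the named falls in IP/input 1, and from the plot of lists 1 list, are not reported here. Members and lists were chosen with earlier results of these data known. Alternatives changed the read minimum, pseudocount, scaling, peak sets and peak weights. Scripts used Python 3.11.15, pandas 2.3.3, numpy 2.4.6, pysam 0.24.0 and matplotlib 3.10.9 and were tested on simulated data.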

Additional observations from a re-analysis of the deposited data

How the results depend on the processing

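Counts of genes in A5-KO PP against WT PP moved with the peaks and genes compared. With a minimum of 200 input reads, 659 of 5472 genes were higher and 802 lower in IP/input, and 1555 were higher and 915 lower in input per kb. With peaks of p below 1e-05 alone, 801 of 6109 genes were higher and 917 lower in IP/input, and 2065 had more peaks. With matched peaks alone, 1588 of 5682 genes were higher and 1228 lower in input per kb, and 685 had fewer peaks. With peaks inside 1 exon, 1167 of 6530 genes were lower in input per kb. Fewer genes could be compared in each of these. Without scaling, 1659 genes were higher in input per kb, and with the A5-KO PP list shortened to the length of the WT PP list, 1779 genes had more peaks. The other 3 alternatives were chosen after seeing the data. With peaks matched in both directions, 817 of 4803 genes were higher and 817 lower in IP/input, 1547 were higher and 870 lower in input per kb, and ARHGEF35 turned to -0.89, scaled to those peaks. With equal weight for each peak, 2132 genes were higher in IP/input, and ATP11A turned to 1.45. Without the peak with the most input reads, 732 of 4027 genes were higher and 604 lower in IP/input, 1260 were higher and 813 lower in input per kb, and UBE2L3 turned to 0.73 in IP/input and ST6GALNAC3 to 1.38 in input per kb. The cause of these 4 turns was not tested. Of 389 values of named genes recomputed, 378 were past the 2-fold limit in either direction, including the turned values of ATP11A and ST6GALNAC3. The naming rule already required protein-coding genes, 200 input reads and matched peaks past the limit, so part of this share was fixed in advance. Of 1372 counts in function lists, 369 moved by over 1.5 times. No paired analysis was possible because each list pools the libraries of a genotype, and leaving out a replicate was not run for the same reason.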
